A study of Mus musculus with 672 samples.

Results

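The mesenchymal cells of the embryonic mouse pancreas at E13.25 (counted in embryonic days) were divided by their level of Acta2, and the cells on both sides were compared. The study sorted single cells of C57BL/6 pancreas after antibody staining into 96-well plates and sequenced full-length cDNA of each well with a Smart-seq2 type of protocol. The E13.25 cells fill 4 plates, numbered by pancreas 1 to 4, and 3 plates hold E15.25 cells: the tip of bud 1, the tip of bud 2 and the trunk of bud 2. No cell carries a treatment or a genetic change by its labels. The label of plate 4 carries a mouse number that those of plates 1 to 3 lack, and nothing says that the plates are separate embryos. The tests below therefore speak of the variation from plate to plate, part of which can be technical.

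A well was kept as a cell if its library held 100000 or more reads on genes, detected 1500 or more genes and gave no more than 20% of its reads to mitochondrial genes. Of 672 wells 601 were kept, 340 of them at E13.25. A mesenchymal cell was then selected on Col3a1 of at least 300 CPM (the reads of a gene scaled by the reads of the cell on all genes), with Epcam and Upk3b each under 30 CPM, to leave out epithelium and mesothelium. This rule left 138 cells of E13.25, with 45, 54, 20 and 19 cells in plates 1 to 4, which is 51.1%, 67.5%, 23.3% and 22.1% of the kept cells of each plate. High cells have Acta2 above the median of the 138 cells and low cells are at or under it, so that 69 cells stand on each side. Plates 1 to 4 gave 27, 27, 8 and 7 high cells and 18, 27, 12 and 12 low cells. Raw reads were summed per plate and side, so the plate is the replicate and the cells of a plate are not. A cell had between 114657 and 5159920 reads on genes, with a median of 1160380.

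Acta2 encodes smooth muscle alpha-actin, a contractile actin that marks smooth muscle, pericytes around vessels and activated fibroblasts. Its gene, like those of many contractile proteins, is driven through CArG boxes, DNA elements bound by serum response factor (SRF) together with myocardin or the myocardin-related factors, which respond to the state of the actin cytoskeleton. In the embryonic pancreas the mesenchyme surrounds the branching epithelium and supplies it with growth factors and matrix.

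The start regions of Acta2 and Myl9 are shown because Acta2 divided the cells and Myl9, which also carries such boxes, was among the genes whose level ran closest to it. The RefSeq sequences (GRCm38.p6) begin 250 bases before each start, and a CArG box was searched as CC, 6 bases of which at least 5 are A or T, then GG, which reads alike on both strands. Capitals mark the box. Acta2 (chr19:34241090-34255590, minus strand) has the first box 84 bases and the second 34 bases before its RefSeq start, each with 1 middle base other than A or T. Each is given with 10 bases on both sides, because the GENCODE M21 annotation counts this stretch as exon. The Myl9 sequence is the 206 bases before its first annotated exon, with boxes 161 and 99 bases before the RefSeq start.
Acta2, first box (chr19:34255438-34255467, minus strand): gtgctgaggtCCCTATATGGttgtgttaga
Acta2, second box (chr19:34255388-34255417, minus strand): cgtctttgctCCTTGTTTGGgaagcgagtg
Myl9 (chr2:156775214-156775419, plus strand): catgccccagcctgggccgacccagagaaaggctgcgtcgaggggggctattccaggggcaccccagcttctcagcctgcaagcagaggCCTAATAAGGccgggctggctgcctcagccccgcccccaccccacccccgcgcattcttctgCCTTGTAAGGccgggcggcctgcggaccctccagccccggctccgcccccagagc
Such a box was found in 2823 of the 32851 RefSeq promoters of the table (8.59%), and 220 (0.67%) held at least 2. Of the 22 smooth muscle contractile genes with an entry 4 held it (18.2%): Cnn2, Myl6, Myl9 and Synm. All 4 actin genes with an entry held it (Acta1, Acta2, Actc1 and Actg1). A gene was counted if any of its promoters held a box, while the share over all is by promoter. These shares are therefore not in the same unit. Tagln, Actg2 and Dcn have no entry. A match is a description of the letters, not of binding.

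Acta2 was either well detected or nearly absent from the reads in these cells. Of the 138 cells, 42 had over 100 CPM, 92 had under 10 CPM and 4 lay between, and 37 cells had no Acta2 read. The highest cell had 5464 CPM. A wide range between cells was not particular to Acta2, as Igf1 ranged from 0 to 5659 CPM over the cells of plate 3. Whether a cell without reads lacked the transcript was not tested. Cells over 100 CPM made up 28.9%, 35.2%, 25% and 26.3% of plates 1 to 4, with 95% Wilson intervals from 17.7% to 43.4%, 23.8% to 48.5%, 11.2% to 46.9% and 11.8% to 48.8%. These shares did not differ beyond their counting error.

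The median cut itself fell at 2.06 CPM, which is a few reads. The 3 cells just above it had 2.08, 2.12 and 2.19 CPM (2, 1 and 2 reads), and the 3 just below it had 2.03, 1.99 and 1.96 CPM (5, 5 and 7 reads). Of the 69 high cells 23 had under 10 CPM. Among 150 epithelial cells of the same plates (Epcam of at least 100 CPM, Col3a1 under 30 CPM), which are not expected to express Acta2, 51.3% had an Acta2 read against 73.2% of the mesenchymal cells, and 23 of the 150 lay above the cut. The median depths were 1468100 reads in the epithelial and 1160380 in the mesenchymal cells. The cut therefore runs through cells near the level seen in epithelium. A clear cut was added after seeing this: the 42 cells over 100 CPM (13, 19, 5 and 5 in plates 1 to 4) against the 92 under 10 CPM (29, 34, 15 and 14).

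**Figure D1:**
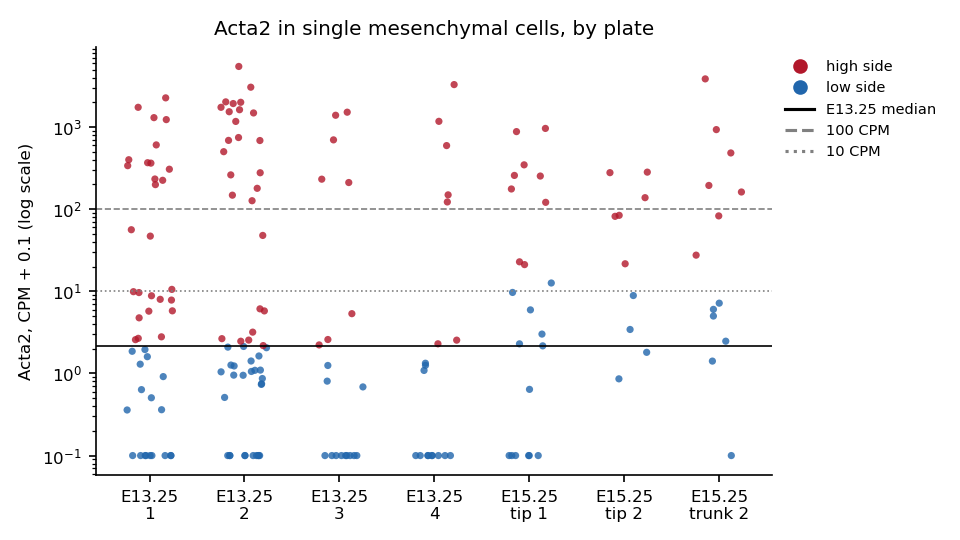
Acta2 of each mesenchymal cell, in CPM + 0.1 on a log scale, by plate. Each point is 1 cell, coloured by its side, E15.25 cells by the median of their own age. The solid line is the E13.25 median of 2.06 CPM. Few E13.25 cells (4 of 138) lie between the dotted line at 10 CPM and the dashed line at 100 CPM. A larger share of the E15.25 cells does: in tip 2, 3 of 10 cells are over 100 CPM and 4 under 10 CPM.

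By construction the plate sums of Acta2 differed: 427, 1017, 572 and 1038 CPM on the high side of plates 1 to 4 and 0.612, 0.873, 0.192 and 0.43 CPM on the low side. Col3a1, which encodes a fibrillar collagen and chose the cells, was 3066, 3346, 2227 and 2455 CPM on the high side and 3222, 3750.4, 3189 and 2906 CPM on the low side, lower on the high side in all 4 plates. These genes, Epcam and Upk3b were used by the rule and are given with no test. The cells were mesenchymal by other genes: the collagen gene Col1a2 and the filament gene Vim reached 10 CPM in all 138 cells, Col1a1 in 136, the receptor gene Pdgfrb in 122 and Pdgfra in 114. Dcn reached it in 62 cells, Lum in 29 and Twist1 in 18.

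Across the genome no gene outside the rule passed the test of high against low. With plate as a block, edgeR's quasi-likelihood test called 0 of 13943 genes (0%) at a Benjamini-Hochberg adjusted p under 0.05, and 407 genes (2.92%) had an unadjusted p under 0.05. The clear cut likewise gave 0 of 13717 (0%), with 520 at an unadjusted p under 0.05. DESeq2 called 133 genes at the median cut (0.954%; 61 higher, 72 lower) and 310 at the clear cut (2.26%; 83 higher, 227 lower), of which 73 were shared. No gene below was taken from its calls, for the reason given with the processing. With the 4 genes of the rule left aside, the adjusted p of edgeR's test was 1 for every gene at both cuts. A count of 0 from these 4 plates does not show that genes were equal, for the reason given with the processing. Values are therefore given by plate, with the fitted log2 difference of high minus low and its standard error (SE, n = 4 plates), and a gene is described as higher or lower in all 4 plates where every plate had that sign. That held upward for 5.4% of all genes tested and downward for 6.66% at the median cut, and for 4.25% and 9.07% at the clear cut. The median log2 difference over all genes was -0.03 at the median cut and -0.17 at the clear cut, and clear cut values are to be read against that shift. The share of all genes whose high and low sums did not overlap is not given, so a lack of overlap only describes the gene named. For genes chosen after their values were seen it can follow from that choice.

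Several contractile genes of smooth muscle had higher sums on the high side. Of 23 measured members other than Acta2, 7 were higher in all 4 plates and 0 lower (all genes 5.4% and 6.66%), and their median log2 difference was 0.66. The clear cut had 9 of 22 higher in all 4 plates and 0 lower, with a median of 0.85. The edgeR test called none of them. The 7 genes at the median cut were Tagln, Actg2, Myl9, Cald1, Synpo2, Pdlim7 and Hspb7. Those of the clear cut were Tagln, Actg2, Myl9, Tpm1, Cald1, Des, Synpo2, Csrp1 and Pdlim7.

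Tagln (chr9:45929619-45936058, minus strand) encodes transgelin, an actin-binding protein of smooth muscle. Its sums were 174, 111, 117 and 195 CPM on the high side of plates 1 to 4 and 22.4, 37.8, 15.1 and 16.5 CPM on the low side. Each high sum exceeded every low sum, and the log2 difference was 2.79 ± 0.47. The clear cut gave 258, 134, 144 and 242 against 18.6, 34.8, 13.7 and 23.2 CPM, a log2 difference of 3.21 ± 0.45. The gene overlaps Pcsk7 on the other strand, and reads of the overlap cannot be told apart without strand. Tagln reached 10 CPM in 35 of 69 high cells and 14 of 69 low cells, and after thinning every cell to 100000 reads it had a read in 52.2% and 29%.

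Myl9 (chr2:156775420-156781658, plus strand), the regulatory light chain of smooth muscle myosin whose start region is shown above, had 373, 418, 389 and 283 CPM on the high side and 305, 118, 76.1 and 107 CPM on the low side. The sides overlapped through plate 1, whose low cells had more Myl9 than the high cells of plate 4. The log2 difference was 1.5 ± 0.38, and 1.99 ± 0.29 at the clear cut, where the sides no longer overlapped (518, 495, 462 and 353 against 222, 108, 77 and 109.5 CPM). Cald1 (chr6:34598500-34775473, plus strand), which encodes the actin and myosin binding protein caldesmon, had 523, 469, 690.3 and 587 CPM on the high side and 283, 288, 479 and 366 CPM on the low side. The difference had 1 direction in every plate (0.72 ± 0.15), while the plates differed enough for the sides to overlap.

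Tropomyosin 1 (Tpm1), which lies along actin filaments, had 823, 991, 942 and 1676 CPM on the high side and 852, 726, 493 and 584 CPM on the low side, so it was higher in 3 of 4 plates (log2 difference 0.74 ± 0.29). It was higher in all 4 plates at the clear cut, at 1002, 1115, 1081 and 2001 against 692, 694, 477 and 618 CPM (1.08 ± 0.24). The LIM protein gene Csrp1 went the same way, with 204, 215, 109.6 and 157 against 78, 55.1, 149 and 128 CPM at the median cut and a clear cut difference of 1.19 ± 0.43. Plate 3 alone had less Csrp1 on the high side at the median cut. Pdlim7, another LIM protein gene of the actin cytoskeleton, had 207, 306, 208 and 209 CPM on the high side and 155, 135, 143 and 159 CPM on the low side, with no overlap (0.66 ± 0.24). Des, the intermediate filament of muscle, differed by 0.69 ± 0.37 and 0.53 ± 0.26 at the clear cut.

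Genes of mature smooth muscle were nearly absent from both sides. The smooth muscle myosin heavy chain gene Myh11 reached 10 CPM in 2 of the 138 cells, calponin (Cnn1) in 3 and leiomodin (Lmod1) in 4. Myh11, Cnn1, Synm and Pln were too low to be tested. Actg2, the enteric smooth muscle actin, reached 10 CPM in 6 high cells and 1 low cell. Its sums of 0.462, 25.2, 34.1 and 1.21 CPM on the high side and 0.0291, 0.774, 0 and 0.501 CPM on the low side thus rest on few cells, and its log2 difference of 4.7 ± 2 is as wide as that makes it. Synpo2 (1.94 ± 1.93) and Hspb7 (2.96 ± 2.44) were as uncertain, with 7 and 4 high cells at 10 CPM against 5 and 3 low cells. Mylk, the kinase that activates myosin, named after its values were seen, differed by -0.33 ± 1.55, with 21.9, 48.5, 44.2 and 0.242 against 27.3, 22.1, 18 and 49.6 CPM and no common direction.

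**Figure D2:**
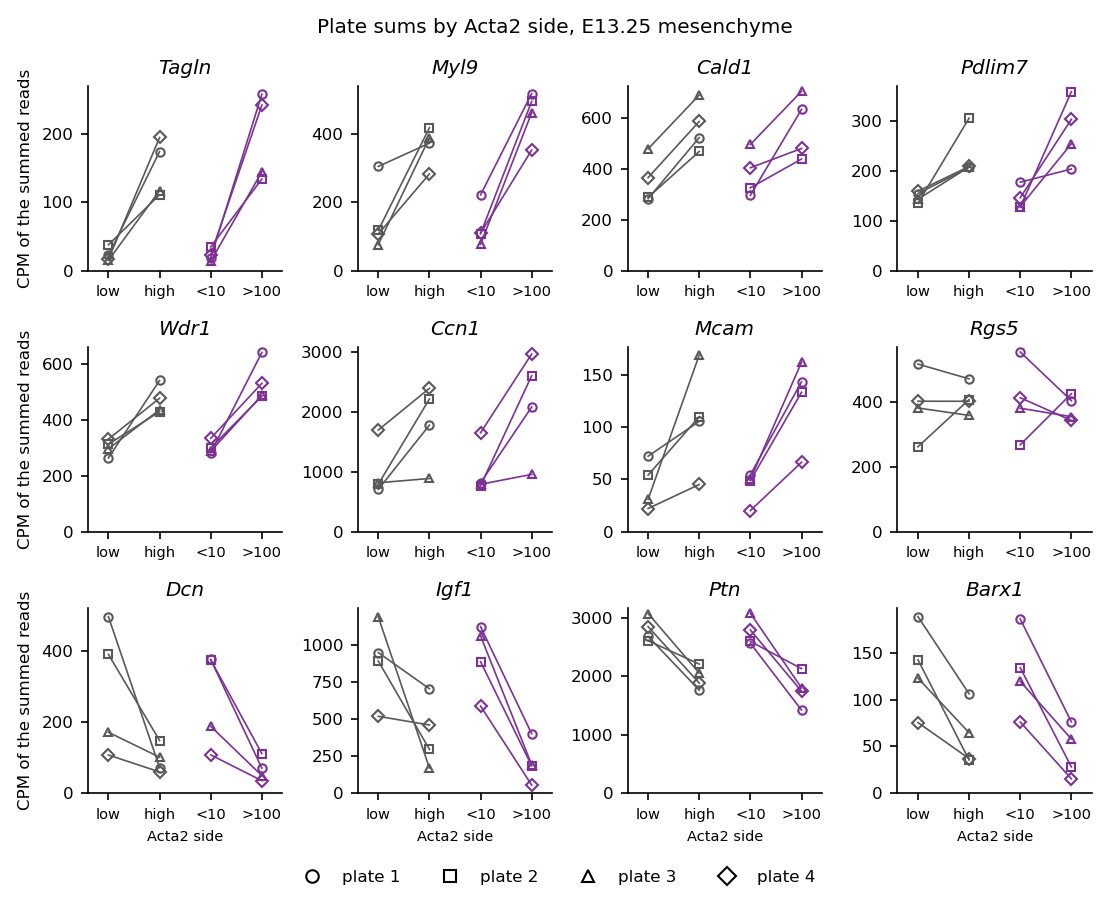
Plate sums of 12 genes in CPM, from 0, with 1 line for each plate. Grey lines join the low and high sides at the median cut and purple lines the cells under 10 and over 100 CPM of Acta2. Tagln, Myl9, Cald1, Pdlim7, Wdr1, Ccn1 and Mcam slope up in each plate at both cuts, Dcn, Igf1, Ptn and Barx1 slope down in each, and Rgs5 goes both ways.

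Cell by cell, the contractile genes were spread unevenly over the Acta2 cells. Of the 42 cells over 100 CPM of Acta2, 28 (66.7%) had at least 10 CPM of Tagln, 34 (81%) of Myl9, 25 of both and 37 of at least 1 of them. Of the 92 cells under 10 CPM, 20 (21.7%) had Tagln, 53 (57.6%) had Myl9, 14 had both and 59 had at least 1 of them. The median cell over 100 CPM had 13 of the 27 contractile genes at 10 CPM (range 7 to 17), and the median cell under 10 CPM had 10 (range 4 to 15). After thinning to 100000 reads the medians of contractile genes with a read were 12 and 10.5. The 23 high cells that had under 10 CPM of Acta2 had Tagln in 6 (26.1%) and Myl9 in 9 (39.1%), and their median of 9 contractile genes was nearer to that of the low side (10) than to 13.

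Dcn, a fibroblast gene, and Igf1, a growth factor gene, crossed with them without excluding them. Dcn reached 10 CPM in 14 of the 42 cells over 100 CPM (33.3%) and in 46 of the 92 under 10 CPM (50%). Igf1 did so in 24 (57.1%) and 70 (76.1%). Of the 42 cells 13 had neither gene at 10 CPM, against 10 of the 92. Tagln and Dcn were both at 10 CPM in 11 of the 42 cells. These are counts of cells from 4 plates and carry no test. Igf1 was chosen after its values in these cells were seen, so its counts follow in part from that choice.

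**Figure D3:**
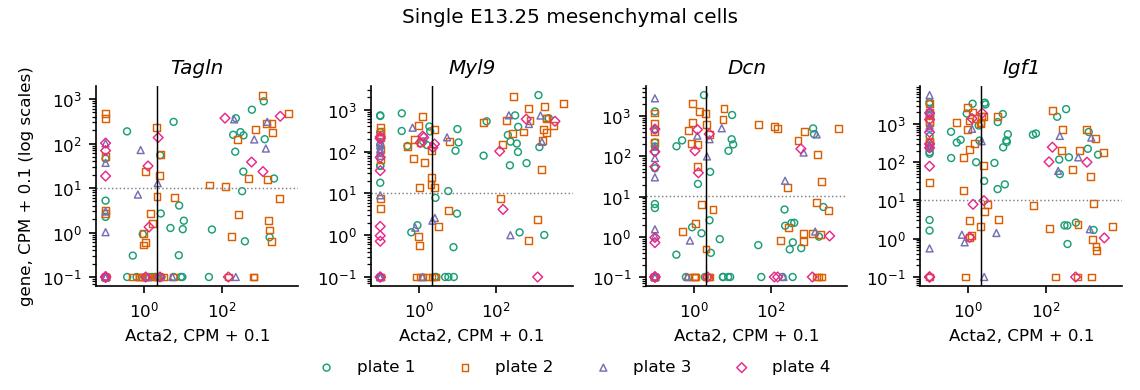
Tagln, Myl9, Dcn and Igf1 against Acta2 in single E13.25 cells, both axes in CPM + 0.1 on log scales. Markers show the plate, the vertical line is the Acta2 median and the dotted line 10 CPM. Of the cells over 100 CPM of Acta2, 37 of 42 hold at least 10 CPM of Tagln or Myl9, and 59 of the 92 under 10 CPM do as well. Cells with and without Dcn occur on both sides.

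Among the other actins, the cytoplasmic beta-actin gene Actb had 7059, 7150.1, 8002 and 8266 CPM on the high side and 6026, 6088, 7553 and 7758 CPM on the low side. It was higher in all 4 plates by a small amount (0.18 ± 0.07, and 0.37 ± 0.08 at the clear cut). Actg1 was also higher in all 4 plates (1.03 ± 0.62). The 3 actins tested besides Acta2 (Actg2, Actb and Actg1) were thus all higher in all 4 plates (all genes 5.4%). Acta1 and Actc1 were too low to be tested. Actin genes are near-identical in sequence, and reads of one can be counted for another or dropped, so these values are uncertain.

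The regulators of the contractile genes showed no common direction. Of 9 measured genes of SRF and its cofactors 0 were higher and 0 lower in all 4 plates, and their median log2 difference was 0.09 (-0.07 at the clear cut). The first 4, Srf, Myocd, Mrtfa and Mrtfb, spanned -0.15 to 0.50. Myocd, the myocardin gene, had 273 reads in all high sums and 236 in all low sums. Of 18 focal adhesion and actin binding genes 0 were higher in all 4 plates and 1, the integrin gene Itga8, was lower (-0.78 ± 0.32). Over all genes 5.4% were higher and 6.66% lower. Vcl, Tln1, Zyx and Pxn spanned -0.42 to 1.57, and Zyx was higher in all 4 plates at the clear cut (0.44 ± 0.23).

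Some cytoskeletal and injury-response genes outside the lists were noted after their values were seen. Wdr1, which promotes the disassembly of actin filaments, had 541, 429, 436 and 477 CPM on the high side and 264, 313, 297 and 331 CPM on the low side, with no overlap (0.67 ± 0.18, and 0.89 ± 0.18 at the clear cut). Ccn1 (chr3:145646976-145649981, minus strand), a secreted matricellular protein gene induced by serum and by stretch, had 1782, 2219, 891 and 2397 against 709, 795, 819.5 and 1700.5 CPM (0.88 ± 0.23; 1.12 ± 0.24 at the clear cut). Plate 3 hardly differed and plate 4 was high on both sides. Filip1l had 242, 405, 201 and 558 against 189, 229, 101 and 145 CPM, higher in all 4 plates (1.05 ± 0.32), and without overlap at the clear cut (1.44 ± 0.30).

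Among pericyte genes, Mcam had higher sums on the high side at both cuts and the classical marker Rgs5 had no common direction. Of 13 measured members 1, Mcam, was higher in all 4 plates and 0 were lower (all genes 5.4% and 6.66%). The median log2 difference was 0.29 (0.19 at the clear cut). Mcam, a cell adhesion receptor of vessel-associated cells, had 105, 109.9, 169 and 45.2 CPM on the high side and 72.2, 54.2, 31.1 and 22.3 CPM on the low side (1.27 ± 0.46). The sides did not overlap at the clear cut, at 143, 133, 162 and 66.4 against 54.5, 48.9, 50.3 and 20.4 CPM (1.62 ± 0.35). This did not hold in cells with Top2a and Mki67 under 10 CPM, where the log2 difference of Mcam was 0.14 at the clear cut, with 2 high cells left in plate 3, and 2.06 at the median cut. Rgs5 had 472, 408, 359 and 403 against 518, 263, 382 and 403 CPM (0.13 ± 0.20), and Pdgfrb, the receptor that draws pericytes to vessels, had 268, 328, 316 and 497 against 448, 307, 251 and 402 CPM (0.03 ± 0.26). Both lay within the spread of the plates. The first 4 of the list, Rgs5, Pdgfrb, Cspg4 and Kcnj8, spanned -0.06 to 0.94.

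Heyl, a Notch target gene and transcriptional repressor of mural cells, had 117, 59.6, 49.3 and 66.2 CPM on the high side and 36.5, 1.67, 14.3 and 71.6 CPM on the low side, higher in 3 of 4 plates (2.01 ± 0.94). At the clear cut it was higher in all 4 (2.06 ± 0.66), 1 of 10 measured Notch pathway genes with that pattern (all genes 4.25%). Notch1, Notch2, Notch3 and the ligand gene Jag1 spanned -0.23 to 0.20 at the median cut.

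Decorin and lumican, of the fibroblast genes, stood on the low side. Of 11 measured stromal fibroblast genes 2 were lower in all 4 plates, Dcn and Lum, and 0 higher (all genes 6.66% and 5.4%). Their median was -0.36, and -0.33 at the clear cut. Dcn (chr10:97479609-97518143, plus strand) encodes decorin, a small proteoglycan that binds collagen fibrils. It had 71.7, 148, 101 and 59.4 CPM on the high side and 495, 389, 171 and 107 CPM on the low side, a log2 difference of -1.4 ± 0.42. The clear cut values were 70.1, 111, 49.1 and 34.8 against 375, 374, 188 and 107 CPM (-1.87 ± 0.28). Plates 1 and 2 had more Dcn than plates 3 and 4 on the low side, so the sides overlapped although every plate had less on its high side. In cells with Top2a and Mki67 under 10 CPM the log2 difference of Dcn was -0.07 at the median cut and -2.63 at the clear cut. Lum, the related proteoglycan lumican, had 48.2, 97.6, 36.7 and 34.6 against 152, 424, 491 and 52.9 CPM (-2 ± 0.53). At the clear cut it was lower in 3 of 4 plates. It reached 10 CPM in 16 high and 13 low cells at the median cut, and in 6 of 42 (14.3%) and 21 of 92 (22.8%) at the clear cut. The first 4 were Pdgfra, Dcn, Lum and Dpt, of which Dpt was too low to be tested.

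Some collagen and microfibril genes were lower too, by small amounts. Of 22 measured genes of fibrillar matrix and elastic fibres 4 were lower in all 4 plates at the median cut (Col1a1, Col5a1, Mfap2 and Mfap4) and 1 was higher (Emilin1). The clear cut had 8 lower (Col1a1, Col1a2, Col5a1, Col6a1, Col6a2, Fbn2, Mfap2 and Mfap4) and 2 higher (Fn1 and Eln). The medians were -0.25 and -0.32. Of all genes 6.66% were lower and 5.4% higher in all 4 plates at the median cut, and 9.07% and 4.25% at the clear cut. Col1a1, the main chain of type I collagen, had 1999.5, 3157, 2709.5 and 2476 CPM on the high side and 2599.8, 4688, 2974 and 3082 CPM on the low side, a small difference of -0.32 ± 0.12 in all 4 plates. Col1a1, Col1a2, Col5a1 and Col5a2 spanned -0.51 to -0.03. Fibronectin (Fn1) and elastin (Eln) differed by 0.90 ± 0.61 and 0.80 ± 0.64, and by 1.45 ± 0.61 and 0.50 ± 0.58 at the clear cut. Of 11 basement membrane genes 3 were higher (Lama2, Lamc1 and Npnt) and 1 lower (Hspg2), and Col4a1, Col4a2, Lama2 and Lama4 spanned -0.50 to 2.21.

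Igf1 and Ptn, which encode secreted growth factors, had lower sums on the high side in all 4 plates. Both were chosen after their values were seen. Igf1 (chr10:87858265-87937042, plus strand), insulin-like growth factor 1, had 703, 295, 169 and 459 CPM on the high side and 947, 890.1, 1188 and 517 CPM on the low side (-1.21 ± 0.46). At the clear cut the sides did not overlap, with 399.9, 184, 190.3 and 54 against 1122, 886, 1060.5 and 587 CPM (-2.35 ± 0.33). Igf1os, an antisense gene, overlaps it. Ptn (chr6:36714929-36810220, minus strand), the heparin-binding factor pleiotrophin, was expressed in every cell and had 1759.6, 2204, 2050.5 and 1879 against 2677, 2604, 3068 and 2844 CPM. Its 4 low sums all exceeded its 4 high sums, by a small amount (-0.48 ± 0.11; -0.59 ± 0.13 at the clear cut).

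Itm2a, a membrane protein gene, had 2889, 2417, 2278 and 2550.5 against 3377, 3051, 2899 and 2522 CPM at the median cut (-0.20 ± 0.12), and was lower without overlap at the clear cut (-0.53 ± 0.10). Wdr86 had 88.5, 105, 70.6 and 57.8 against 264, 196, 234 and 128 CPM, also without overlap (-1.31 ± 0.27). Tnks1bp1 had 29.7, 36.9, 4.64 and 7.73 against 113, 106, 28.9 and 53.8 CPM, lower in all 4 plates (-2.19 ± 0.50). These 3 genes too were picked after their values were seen, from those with the smallest unadjusted p in edgeR. Sides that do not overlap follow in part from that choice.

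Transcription factors that pattern the gut mesenchyme were, where they had 1 direction, lower on the high side. Of 25 measured members 3 were lower in all 4 plates (Barx1, Tlx1 and Hoxb5) and 0 higher (all genes 6.66% and 5.4%), with a median of -0.24. The clear cut had 7 lower (Barx1, Pbx3, Hoxa5, Hoxb5, Twist2, Gata6 and Foxp2) and 0 higher (all genes 9.07% and 4.25%), with a median of -0.25. At E15.25 1 of 24 was lower in all 3 plates and 2 higher (all genes 10.9% and 14.9%). Barx1, a homeobox factor of stomach and spleen mesenchyme, had 106, 35.4, 64.6 and 37 CPM on the high side and 189, 143, 123 and 75.4 CPM on the low side (-1.17 ± 0.35; -1.66 ± 0.42 at the clear cut). In cells with Top2a and Mki67 under 10 CPM the log2 difference of Barx1 was -0.38 at the median cut and -2.72 at the clear cut. It reached 10 CPM in 29 high and 40 low cells. Hoxb5 had 53.6, 38.5, 35.1 and 19.3 against 65.3, 74.2, 68.7 and 76.1 CPM, with no overlap (-1.01 ± 0.47). The first 4, Barx1, Nkx2-5, Nkx3-2 and Tlx1, spanned -1.17 to 0.54. Wt1, a factor of mesothelium and of the mesenchyme derived from it, had 156, 169.5, 286 and 107 against 126, 135, 79.3 and 89.4 CPM, higher in all 4 plates (0.70 ± 0.37; 1.17 ± 0.40 at the clear cut), although Upk3b had been used to leave mesothelium out.

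Among signalling pathways, the BMP list held the most genes with 1 direction at the median cut. Of 13 measured 4 were higher in all 4 plates (Bmp2, Id3, Id4 and Nog) and 1 lower (Bmp5), with a median of 0.40 (all genes 5.4% and 6.66%). This was not seen again at E15.25, where 0 of 11 were higher in all 3 plates and 3 lower (all genes 14.9% and 10.9%). Id3, a target gene of BMP signalling that blocks basic helix-loop-helix factors, had 806, 550.4, 726 and 92.1 CPM on the high side and 626, 441, 237 and 27.7 CPM on the low side (1.03 ± 0.34; 1.4 ± 0.42 at the clear cut). Plate 4 was lowest on both sides. The ligand gene Bmp2 had 16.6, 4.55, 34.8 and 1.21 against 0.0291, 0.175, 0.447 and 0.143 CPM, but 7 of the 138 cells held 10 CPM or more, all on the high side, and at the clear cut it was higher in 3 of 4 plates. Bmp5, another ligand gene, reached 10 CPM in 1 high and 6 low cells, with 0.0178, 0.0892, 14.9 and 0 against 5.04, 5.76, 31.4 and 6.88 CPM. Bmp2, Bmp4, Bmp5 and Bmp7 spanned -5.77 to 5.67.

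In the Hedgehog list of 8 measured genes, Gli2, a transcription factor of the pathway, was higher in all 4 plates and Ptch1, the receptor and target gene, was lower (all genes 5.4% and 6.66%). Gli2 had 79.9, 68.8, 43.9 and 139.9 CPM on the high side and 10.5, 57.9, 16.4 and 25.6 CPM on the low side (1.81 ± 0.61). Ptch1 had 3.13, 8.26, 0.379 and 3.87 against 37.1, 26.4, 32.7 and 34.6 CPM with no overlap (-3.56 ± 1.12), from 10 high and 15 low cells at 10 CPM. Gli1, another target gene, was too low to be tested. In the FGF list of 10 measured genes, Spry2 was higher in all 4 plates, and the ligand gene Fgf10 and the receptor gene Fgfr1 were lower (all genes 5.4% and 6.66%). Fgfr1 had 135, 217, 178 and 222 against 368, 257, 289 and 234 CPM with no overlap (-0.59 ± 0.30). Fgf7, Fgf10 and Fgf18 spanned -2.57 to 1.66, and Fgf9 was not tested.

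The TGF-beta list, whose ligands induce contractile genes in many cells, had 2 of 16 measured genes higher in all 4 plates, Smad2 among them, and 0 lower, with a median of -0.04 (all genes 5.4% and 6.66%). At the clear cut 1 was higher and 3 lower, the receptor genes Tgfbr1 and Tgfbr2 and Smad4 (all genes 4.25% and 9.07%). Tgfb2, Tgfb3 and Tgfbr1 spanned -0.39 to -0.21, and Tgfb1 was too low to be tested. The Wnt list had 0 of 12 in either direction at the median cut (Wnt4 and Wnt5a at -0.43 to 0.42, with Wnt2 and Wnt2b not tested). The retinoic acid list had 2 of 12 lower, Crabp2 and Rarg, and 0 higher (all genes 6.66% and 5.4%). Aldh1a2 differed by 0.41 ± 1.72, and Aldh1a1 and Aldh1a3 were not tested.

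Few cycling genes had 1 direction in all 4 plates. Of 20 S phase genes 2 were lower in all 4 plates, Rrm2 among them, and 0 higher (all genes 6.66% and 5.4%). Their median was -0.58, and Mcm2, Mcm3, Mcm4 and Mcm5 spanned -0.74 to -0.56. At E15.25 2 of 20 were higher in all 3 plates and 0 lower (all genes 14.9% and 10.9%), with a median of 0.83, the other way. Of 20 G2/M genes 0 had 1 direction at E13.25 (Mki67, Top2a, Ccnb1 and Ccnb2 at -0.99 to 1.64). Of 20 immediate early genes, which a cell switches on soon after a stimulus such as dissociation, 5 were higher in all 4 plates (Junb, Ier3, Atf3, Zfp36 and Hspa1b) and 0 lower (all genes 5.4% and 6.66%), with a median of 0.52. At E15.25 5 of 18 were higher in all 3 plates and 0 lower (all genes 14.9% and 10.9%), with a median of 0.56. The clear cut had 3 of them, Ier3, Zfp36 and Hspa1b. Fos, Egr1, Jun and Junb spanned -0.0047 to 0.67. The glycolysis and hypoxia list had 1 of 15, Slc2a1, higher and 0 lower (all genes 5.4% and 6.66%). Slc2a1, Hk2, Pfkl and Aldoa spanned -1.05 to 1.30.

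**Figure D4:**
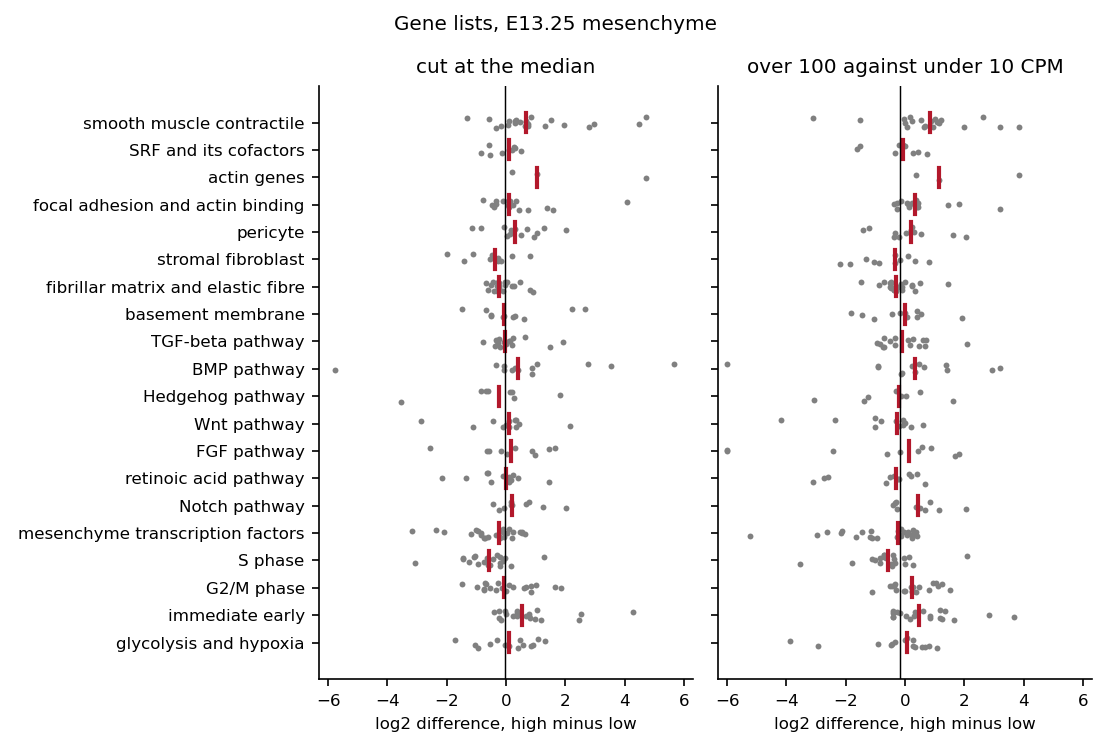
Fitted log2 differences of the genes of 20 lists at the median cut (left) and the clear cut (right). Each grey point is 1 gene, values past 6 in size are drawn at 6, red bars are list medians and the vertical line is the median of all genes (-0.03 and -0.17). The contractile list has a median of 0.66 and 0.85, and the fibrillar matrix list -0.25 and -0.32.

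Cell quality and markers of other cell types were set beside these values. The median share of mitochondrial reads was higher on the high side in all 4 plates at the median cut (3.41%, 4.12%, 5.46% and 4.52% against 3.19%, 4%, 4% and 4.26%; exact sign-flip test, two-sided, p = 0.125, the smallest that 4 plates allow), and in 2 of 4 plates at the clear cut (p = 0.75, exact sign-flip test). Reads per cell did not differ in a common direction (p = 0.375 and 0.5, exact sign-flip tests), but the cells over 100 CPM of Acta2 had medians of 2860400 and 2048400 reads in plates 1 and 3, against 942420 and 869820 in the cells under 10 CPM. The mitochondrial gene mt-Nd5, named after its values were seen, had 2444, 2839.9, 2688 and 2494 CPM on the high side and 1600.4, 2097, 2294 and 1917 CPM on the low side. The part of these measures in the gene differences was not tested.

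Endothelial markers (7 genes) summed to 2.9 to 10 CPM in the high sums and 0.495 to 1.07 CPM in the low sums at the median cut. At the clear cut the sides overlapped, at 0.352 to 12.15 against 0.982 to 6.39 CPM, higher in 3 of 4 plates. No endothelial marker was high enough to be tested. Pecam1 and Cdh5 reached 30 CPM in 1 cell each, and Ptprc and Sox10 in 0 of 138. The epithelial markers summed to 36.4 to 108 CPM on the high side and 11.6 to 191 CPM on the low side, higher in 3 of 4 plates. Of 6 tested 3 (Cdh1, Krt18 and Spp1) were higher in all 4 (all genes 5.4%). At the clear cut 0 of 6 were. The 7 mesothelial markers other than Upk3b summed to 132 to 288 CPM against 80.2 to 158 CPM, higher in 3 of 4 plates and, at the clear cut, in 4 of 4. Wt1, given above, made up most of each of these sums at the median cut, and 2 of the 7 genes were high enough to be tested. Msln was at 0 in the high sums. Leukocyte markers summed to 0.0947 to 32.4 CPM against 16.1 to 25.2 CPM, and neural ones to 1.93 to 24.5 CPM against 12.4 to 36.4 CPM, each higher in 1 of 4 plates. The haemoglobin gene Hba-a1 reached 30 CPM in 14 of the 19 cells of plate 4 and in 23 of all 138, on both sides. Leaving out every cell with 30 CPM of a gene of another cell type, such as Pecam1, Cdh5, Ptprc, Sox10 or Hba-a1, with the median taken anew, left 1 high and 4 low cells in plate 4. The genes named next kept their direction and moved in size. The log2 difference of Tagln was then 1.66, the log2 difference of Myl9 was 0.52, the log2 difference of Dcn was -2.58, the log2 difference of Igf1 was -2.05 and the log2 difference of Ptn was -1.37. The log2 difference of Cald1 was 0.21 and the log2 difference of Filip1l was 0.04, so that little of either was left. The unadjusted p in edgeR was then over 0.05 for Tagln, Myl9, Ptn, Cald1 and Filip1l, and under it for Dcn and Igf1, while the median of all genes moved to -0.23. The part of the haemoglobin reads in the plate 4 values was not tested.

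Gene by gene within each plate, Tagln followed Acta2 most closely. Among 10093 genes with a mean of at least 10 CPM, the median over the 4 plates of the Spearman correlation with Acta2 across cells was 0.433 for Tagln (0.518, 0.37, 0.417 and 0.449 in plates 1 to 4). The next were Bysl at 0.42, Myl9 at 0.396, Ccn2 at 0.393, Mir703 at 0.383, Irak2 at 0.375, Zfp40 at 0.374, Gm17501 at 0.371, Fastkd2 at 0.352 and Csrp1 at 0.346. Tagln, Myl9 and Csrp1 of the contractile list were among these 10, as was Ccn2, a serum-induced relative of Ccn1. The lowest values were those of Gm11652 at -0.356, Mest at -0.34, Nfat5 at -0.334 and Ptn at -0.321, and Igf1 followed among the 10 lowest at -0.3. The cells of a plate share a library pool and differ in depth, and these correlations are given with no p. The ranking uses the same Acta2 values and cells as the cut, so it adds no separate support for the genes above. The ends of a ranking of 10093 genes are also extreme by selection.

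Bysl, a ribosome assembly factor gene, had 36.4, 57, 42.8 and 67.7 CPM on the high side and 7.02, 24, 6.97 and 0.43 CPM on the low side, with no overlap (3.01 ± 1.19). Bysl was taken from the ranking by Acta2, so the gap between its sides follows in part from that choice. It reached 10 CPM in 27 high and 10 low cells.

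The E15.25 plates, which the E13.25 cut did not use, gave 45 cells by the same rule: 22 in tip 1, 10 in tip 2 and 13 in trunk 2. Cut at their own median they made 9, 6 and 7 high cells and 13, 4 and 6 low cells. Acta2 was over 100 CPM in 31.8%, 30% and 38.5% of the cells (95% Wilson intervals 16.4% to 52.7%, 10.8% to 60.3% and 17.7% to 64.5%). The edgeR test called 0 of 11700 genes (0%), with 374 at an unadjusted p under 0.05, and DESeq2 called 321. Genes were higher on the high side in all 3 plates in 14.9% of cases and lower in 10.9%. Bud number 2 is shared by a tip and the trunk plate, so these may come from 1 bud. The protocol filed with these plates speaks of E13.25 embryos, and the age of the labels was used.

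Single contractile genes were higher again at E15.25, while the list was near the share of all genes. Tagln had 1.88, 53 and 131 CPM in the high sums of tip 1, tip 2 and trunk 2 and 3.81, 0 and 4.4 CPM in the low sums, higher in 2 of 3 plates (4.43 ± 2.84, SE, n = 3). Myl9 had 387, 462 and 506 against 220.3, 378 and 145 CPM, higher in all 3 (0.91 ± 0.42). Actg2 had 25.3, 17.4 and 83.5 against 0, 0.614 and 0.667 CPM, also higher in all 3 (6.94 ± 1.87). The contractile list as a whole had 4 of 19 measured genes higher in all 3 plates and 2 lower (all genes 14.9% and 10.9%), with a median of 0.24 against 0.05 for all genes. Cald1 (-0.04 ± 0.42) and Csrp1 (-0.04 ± 0.52) lay near 0.

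Ccn1 had 575, 875 and 1373 against 326, 451 and 533 CPM at E15.25 (0.99 ± 0.28), and Wdr1 had 447, 676 and 365 against 213, 157 and 156 CPM (1.41 ± 0.37), both higher in all 3 plates. Mcam had 231, 46.1 and 59.6 against 114, 4.6 and 3.47 CPM (2.78 ± 0.94), and Heyl 323, 35.1 and 331 against 121, 0.307 and 5.61 CPM (4.53 ± 1.33). Pdgfrb, which had no direction at E13.25, had 801, 463 and 488 against 322, 167 and 261 CPM (1.17 ± 0.30). The mural genes Mcam, Heyl and Pdgfrb were thus each higher in all 3 plates, and 5 of 15 measured pericyte genes were (all genes 14.9%).

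On the low side, Igf1 had 377, 595 and 113 CPM in the high sums and 516, 1381 and 655 CPM in the low sums (-1.45 ± 0.45), Ptn had 1638, 3282 and 2070.1 against 3434, 4162 and 3310.0 CPM (-0.75 ± 0.23), and Itm2a had 4214, 6309 and 2517 against 6812, 7392 and 6314 CPM (-0.80 ± 0.25). These 3 genes were lower in all 3 plates. Dcn, lower at E13.25, had 1181, 2393 and 2841 against 1611, 2057 and 2196 CPM (-0.01 ± 0.26), and Lum 1104, 1799.6 and 2204 against 1355, 1523 and 1794 CPM (0.03 ± 0.25), with no common direction. Every E15.25 sum of Dcn and of Lum exceeded every E13.25 sum, and since each age has its own plates, age and plate cannot be told apart. Barx1 differed by 1.19 ± 1.91.

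The difference between the ages was tested itself, as the interaction of side and age over all 7 plates, and edgeR called 0 of 15193 genes (0%), with 665 at an unadjusted p under 0.05 and 325 called by DESeq2. No gene can thus be said to follow Acta2 more at one age than at the other.

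**Figure D5:**
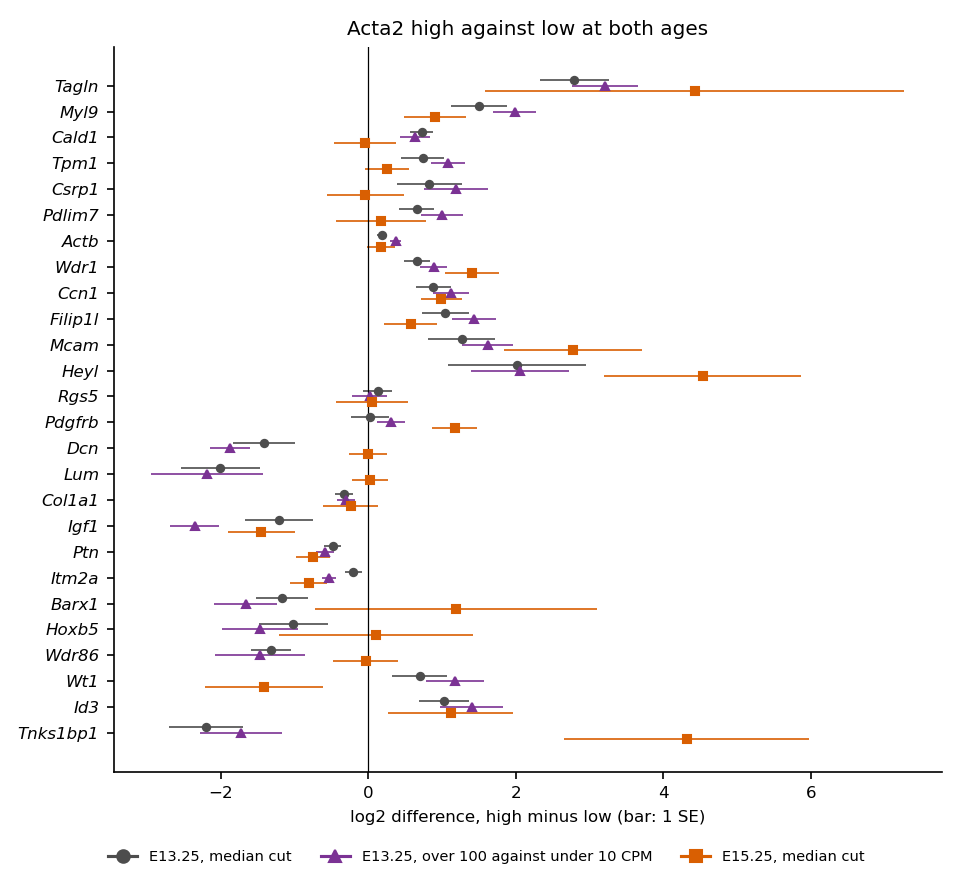
Fitted log2 differences of high minus low for 26 genes, with bars of 1 SE. Circles are the median cut at E13.25 (4 plates), triangles the clear cut at E13.25 and squares the median cut at E15.25 (3 plates). Tagln, Myl9, Wdr1, Ccn1, Mcam and Heyl lie right of 0 in all 3, Igf1, Ptn and Itm2a left of 0, and Dcn and Lum lie at 0 at E15.25.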

How the data were processed

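Reads per gene and well are counts that the authors deposited: per the submitters' processing notes, reads were aligned to mm10 with GSNAP and counted with HTSeq 0.5.3p3. The annotation release and the strand setting are not given in the sources used here. Of the reads of the 138 cells, 12.5% fell on no gene and 3.65% on more than 1, and 33.2% did not align. These classes and the spike-in RNA were left out of the totals. The protocol has no molecular identifiers, so intervals cover counting error only. The labels name neither the antibodies nor the gates. Wells hold 1 sorted cell, and no doublet caller was run.

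Counts were summed per plate and side. The test was the quasi-likelihood test of edgeR 4.0.16 in R 4.3.3, with trimmed mean (TMM) scaling, the filterByExpr filter, plate as a block and Benjamini-Hochberg adjustment, and E15.25 and the interaction were fitted likewise. Fold changes are fitted log2 differences. DESeq2 1.42.0 was an alternative. Both were tested on simulated data without plate effects, drawn with the spread that edgeR itself estimated from these sums. There most DESeq2 calls were genes that had not been changed, while edgeR made few false calls and missed most of the changed genes. Because the spread is edgeR's own estimate, this does not weigh the tools evenly. A fixed spread was also simulated and is not reported here. The simulation with edgeR's spread therefore cannot decide between the tools. As the tools disagree, DESeq2's counts are given and not relied on, and a count of 0 from edgeR does not show that genes were equal. High and low sums of a plate are paired because they come from the same plate: their deviations correlated at 0.029 to 0.061, against -0.033 to 0.006 for other plates (10067 genes). Thinning every cell to 100000 reads was used for the shares of Tagln and the numbers of contractile genes where said. The other shares of cells are given without thinning and can depend on depth.

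Genes were named as members of fixed lists, by the closest correlation with Acta2, or, where said, after their values were seen. Values of a few list members are not reported here. The members and lists were chosen with earlier results of these data known. Alternatives were no block, other scaling and filters, other cuts and cell selections, and leaving out each plate. Figures were drawn with matplotlib 3.10.9.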

Additional observations from a re-analysis of the deposited data

Results flagged for a closer look

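Some plate sums stood apart from the other 3 of their group by Dixon's test, which chance meets in about 1 of 20 groups: 8 of 135 groups checked did (5.93%). Plate 4 had 2001 CPM of Tpm1 on the high side of the clear cut, the highest of that group. Plate 2 had 305.8 CPM of Pdlim7 on the high side of the median cut. Plate 4 had the most Ccn1 among low sums, with 1701 CPM at the median cut and 1655 CPM at the clear cut, and the lowest Mcam of the clear cut low sums, with 20.35 CPM. Bmp5 was highest in plate 3, at 14.87 CPM on the high side, 31.38 CPM on the low side and 36.64 CPM on the low side of the clear cut.

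Tnks1bp1 and Hspg2 were lower on the high side in all 4 E13.25 plates and higher in all 3 E15.25 plates. The log2 difference of Tnks1bp1 was -2.19 at E13.25 and 4.319 at E15.25, and the adjusted p of the interaction was 1 in edgeR and 7.755e-05 in DESeq2. That of Hspg2, the heparan sulfate proteoglycan perlecan, was -0.67 at E13.25 and 1.805 at E15.25, with adjusted p of 1 in edgeR and 0.124 in DESeq2. The edgeR test of the difference thus called neither gene.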

How the results depend on the processing

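edgeR called 0 genes outside the rule in all the alternatives run at both ages, with the range over leaving out each plate from 0 to 0 at both cuts, and 0 without the replicate block, so the plate pairing changed no call. DESeq2 called 133 genes at the median cut, 310 at the clear cut, 321 at E15.25 and 325 for the difference between ages. Of 121 genes followed over up to 26 settings, 56 never changed sign and 65 did at least once. Among the genes given by plate, Tagln spanned 1.66 to 3.59, Dcn -3.0 to -0.07 and Igf1 -2.65 to -0.72, while Pdgfrb changed sign in 11 settings, Rgs5 in 5, Heyl in 1 and Bmp2 in 1. Where 1 of the compared values had an unadjusted p under 0.05 in edgeR or DESeq2, the sign of the reported log2 difference turned at the clear cut for Bmp2 (-0.70) and Slc2a1 (-0.43) in cells with Top2a and Mki67 under 10 CPM, for Fgf7 with DESeq2 (-9.87) and without plate 2 (-11.07), and for Top2a without plate 4 (1.04). In the plates with 10 cells on both sides it turned for Mki67 (0.87), Top2a (1.24) and Fos (0.60). The cause was not tested. Plates 3 and 4 have 7 or 8 high cells at the median cut and 5 at the clear cut, which limits genes found in few cells, such as Bmp2, Bmp5 and Actg2.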
